A study of Mus musculus with 141 samples.

Results

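The 10 genes described here, Fos, Fosb, Jun, Junb, Atf3, Egr1, Ier2, Btg2, Dusp1 and Ier3, belong to the immediate-early response and were chosen by gene symbol from the 24423 genes of the files. They were read in liver, lung and kidney of 1 male mouse from each of 47 Collaborative Cross (CC) strains, recombinant inbred lines that each carry a mosaic of the genomes of the same founder strains. The mice were 8 to 12 weeks old, ate an NTP diet under a 12-h light cycle, and sat in mesh chambers with clear air for 6 hours a day on weekdays over 2 weeks. Nembutal at 100 mg/kg and exsanguination preceded excision of the organs. The groups compared are therefore the 3 tissues of the same mice. With 1 mouse per strain, a difference between strains cannot be told apart from a difference between individual mice, and the RNA of a whole organ holds many cell types.

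Immediate-early genes are transcribed within minutes of a stimulus, without new protein synthesis, by factors that already sit on or near their promoters, such as serum response factor with its ternary complex partners and CREB. Most of their transcripts are short-lived, so their level in a sampled tissue reflects a short time before sampling. Fos, Fosb, Jun, Junb and Atf3 encode basic leucine zipper proteins that pair into the AP-1 transcription factor, Egr1 encodes a zinc finger transcription factor, and Ier2 a nuclear protein. Btg2 encodes an antiproliferative protein that recruits the deadenylase complex to mRNA, Dusp1 a phosphatase that switches off MAP kinases, and Ier3 a regulator of survival and of ERK signalling.

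The libraries held between 1738046 and 42158454 counts in liver (median 10423382), between 2829104 and 17585682 in lung (median 9338124) and between 3046695 and 15028553 in kidney (median 8245850). The marker genes of a library's own tissue had the highest summed level among the 3 tissue lists in 47 of 47 libraries of each tissue. Levels below are CPM (counts scaled to a common library size) after TMM scaling, which sets the bulk of genes equal between libraries, and levels are compared between genes only as TPM, which are divided by transcript length. A count of 3 corresponded to a median of 0.288 CPM in liver, 0.321 in lung and 0.364 in kidney on total counts. It was taken as the limit below which a gene was not resolved, for counting error only.

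To show what the members share at their starts, the 250 bases upstream of the annotated start were read from the RefSeq promoters (GRCm38.p6, another build than the files), in which 8 of the 10 members were found by symbol, all but Egr1 and Ier2. The core of the cAMP response element, TGACGT on either strand, which CREB and ATF proteins bind, was present upstream of 4 of these 8 members, against 6.47% of 32851 promoters in the same window. The 4 are printed 5′ to 3′ along the strand of the gene, with the core in capitals.
Fos, chr12:85473640-85473889, plus strand: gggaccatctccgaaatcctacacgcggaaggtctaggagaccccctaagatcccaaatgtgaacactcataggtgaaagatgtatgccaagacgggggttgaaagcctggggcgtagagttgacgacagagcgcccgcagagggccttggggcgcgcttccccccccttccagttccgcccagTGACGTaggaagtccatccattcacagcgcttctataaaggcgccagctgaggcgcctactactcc
Atf3, chr1:191183334-191183583, minus strand: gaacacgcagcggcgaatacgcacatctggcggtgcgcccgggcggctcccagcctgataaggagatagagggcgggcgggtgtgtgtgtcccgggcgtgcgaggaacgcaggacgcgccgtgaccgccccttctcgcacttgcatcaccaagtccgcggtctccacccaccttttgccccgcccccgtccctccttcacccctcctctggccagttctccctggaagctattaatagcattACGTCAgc
Btg2, chr1:134079156-134079405, minus strand: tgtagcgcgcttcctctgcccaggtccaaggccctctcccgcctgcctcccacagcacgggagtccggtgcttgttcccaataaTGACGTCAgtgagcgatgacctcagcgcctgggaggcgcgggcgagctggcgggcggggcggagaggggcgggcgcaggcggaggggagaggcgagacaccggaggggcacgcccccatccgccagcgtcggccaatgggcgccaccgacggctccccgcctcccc
Dusp1, chr17:26508473-26508722, minus strand: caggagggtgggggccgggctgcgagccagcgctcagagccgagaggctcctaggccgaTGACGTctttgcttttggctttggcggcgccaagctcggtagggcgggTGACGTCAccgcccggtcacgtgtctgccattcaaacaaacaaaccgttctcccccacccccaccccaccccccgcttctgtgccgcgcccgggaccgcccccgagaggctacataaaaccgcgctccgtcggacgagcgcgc
The core lay 61 to 66 bases before the start of Fos and 3 to 8 bases before that of Atf3. In Btg2 and Dusp1 it formed the whole palindrome TGACGTCA, 159 to 166 and 136 to 143 bases before the start, and this element stood in 2 of 8 members against 1.55% of all promoters. Dusp1 held another core 186 to 191 bases upstream. No member in the table held a CArG box, which binds serum response factor (1.47% of all promoters), an AP-1 site TGACTCA or TGAGTCA (4.46%) or an EGR site GCGTGGGCG (0.536%) in this window on either strand. The TATA box TATAAA was found in Fos alone, 28 to 33 bases upstream, against 12.4% of all promoters. These matches describe letters in a short window and are not evidence of binding.

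The tissue comparison asked where the members were high at sampling. Of the 9 members other than Fosb, 9 were higher in lung than in kidney, 4 were higher in lung than in liver, and liver exceeded kidney for 4 while kidney exceeded liver for Ier3. The counts depended on the scaling, and on total counts and on 2 TPM scales 7, 8 and 8 of the 9 were higher in lung than in liver and 2 were higher in liver than in kidney, while the 9 remained higher in lung than in kidney. For lung against liver, the median log2 fold change of all genes was itself 1.43, 1.21 and 1.52 on these scales. For liver against kidney it was -0.95, -0.72 and -0.94. The changes in these counts are therefore not read as a result about the members. The test was limma-voom on all libraries with strain as replicate block, adjusted with Benjamini-Hochberg (q) over 12127 tested genes, and a call required q of at most 0.1 and a log2 fold change of 1 or more in either direction. Fosb had at most 3 counts in 42 of 47 liver and 30 of 47 kidney libraries, so it passed the filter on low values only through lung, where it was high, and is given by its counts and left out of the numbers of members called. The other 9 members had counts above that in most libraries of every tissue.

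**Figure D1:**
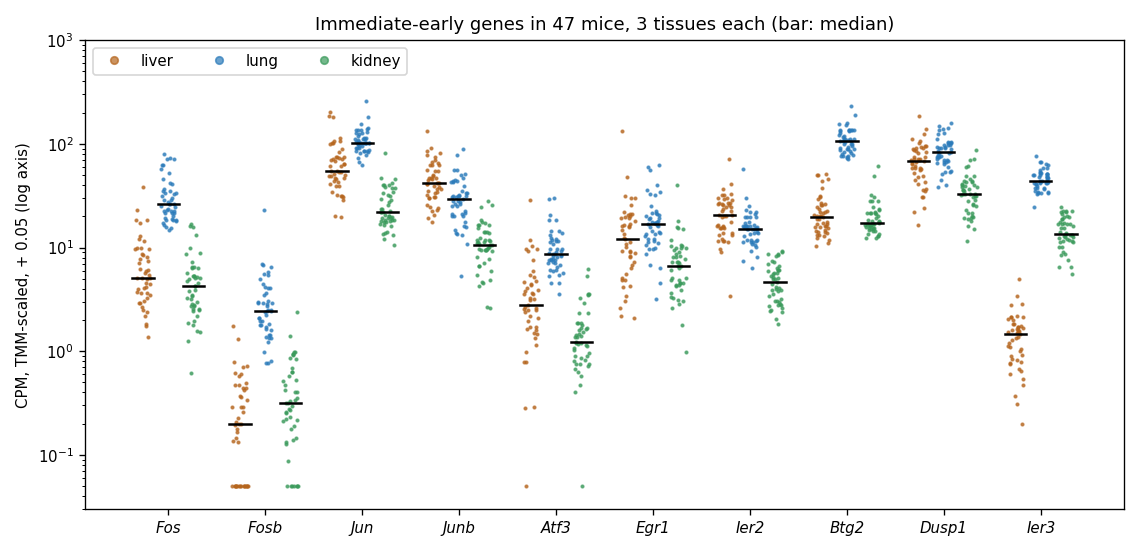
Level of each member in every library, in TMM-scaled CPM plus 0.05 on a log axis, with 1 point per mouse, a colour per tissue and a bar at the median. The lung points of Btg2 and Ier3 lie wholly above the liver points, and 16 liver points of Fosb lie at 0 counts, at the bottom of the axis.

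Fos, the AP-1 subunit that cannot pair with itself, ranged from 14.8 to 79.8 CPM in lung, with a median of 26.4. In liver it ranged from 1.33 to 38.7 CPM (median 5.09), and in kidney from 0.573 to 16.9 CPM (median 4.17). Lung was higher than kidney in 47 of 47 mice and higher than liver in 46 of 47, although the ranges overlapped. The log2 fold change was 2.24 ± 0.17 (SE) for lung against liver (q = 2.01e-23) and 2.75 ± 0.15 for lung against kidney (q = 6.76e-34). For liver against kidney it was 0.51 ± 0.18, short of the fold threshold, with liver higher in 29 of 47 mice. Fosb, its close relative, was the lowest member in every tissue. It ranged from 0.713 to 22.9 CPM in lung, with a median of 2.38 CPM or 33 counts (5 to 172). In liver it had 0 to 16 counts (median 1) and in kidney 0 to 24 counts (median 2), so no fold change is given for it.

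Jun and Junb encode partners of Fos in AP-1. By its medians Jun had the tissue order of Fos, and Junb had another. Jun spanned 62.9 to 256 CPM in lung (median 102), 19.8 to 205 CPM in liver (median 54.9) and 10.4 to 82.5 CPM in kidney (median 21.9). Lung exceeded liver in 40 of 47 mice, but the log2 fold change of 0.81 ± 0.11 fell short of the threshold. Over kidney, Jun was higher in lung (2.18 ± 0.11, q = 9.50e-36) and in liver (1.37 ± 0.12, q = 8.30e-20). For Junb the liver had the highest median. It spanned 17.6 to 134 CPM in liver (median 42.2), 5.22 to 89.7 CPM in lung (median 29.3) and 2.58 to 27.8 CPM in kidney (median 10.5). Liver exceeded lung in 35 of 47 mice, with a log2 fold change for lung against liver of -0.57 ± 0.15, short of the threshold. Kidney was the lowest, with log2 fold changes of 1.53 ± 0.15 for lung (q = 7.46e-17) and 2.11 ± 0.15 for liver (q = 4.99e-24) over it.

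Atf3, an AP-1 partner known for its induction by cell stress, ranked lung, liver, kidney. Its levels ran from 3.49 to 30.2 CPM in lung (median 8.53), from 0 to 28.6 CPM in liver (median 2.71) and from 0 to 6.20 CPM in kidney (median 1.19). The 3 comparisons all passed the threshold, at log2 fold changes of 1.42 ± 0.19 for lung over liver (q = 1.11e-10), 2.69 ± 0.17 for lung over kidney (q = 2.56e-27) and 1.26 ± 0.21 for liver over kidney (q = 5.37e-08). In 5 liver and 5 kidney libraries Atf3 had at most 3 counts.

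Egr1 and Ier2 differed between lung and liver by less than the threshold, in opposite directions. Egr1 ran from 3.17 to 62.4 CPM in lung (median 16.9), from 2.06 to 133 CPM in liver (median 12.0) and from 0.933 to 39.9 CPM in kidney (median 6.61). Only lung against kidney passed, at 1.39 ± 0.17 (q = 5.31e-12), while lung against liver was 0.46 ± 0.19 and liver against kidney 0.93 ± 0.20. Ier2 had the tissue order of Junb. It ran from 3.39 to 72.1 CPM in liver (median 20.4), from 6.24 to 56.8 CPM in lung (median 15) and from 1.78 to 9.31 CPM in kidney (median 4.61). Ier2 was higher than kidney in 47 of 47 mice both in lung (1.76 ± 0.13, q = 2.50e-24) and in liver (2.22 ± 0.13, q = 5.71e-30), and lung against liver was -0.46 ± 0.13.

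The regulators Btg2, Dusp1 and Ier3 had 3 different tissue patterns. Btg2 was far higher in lung, with 72.0 to 232 CPM in lung (median 106), 10.4 to 51.4 CPM in liver (median 19.6) and 12.2 to 60.9 CPM in kidney (median 17.2). Its lung range lay above both other ranges, with log2 fold changes of 2.42 ± 0.09 over liver (q = 1.20e-44) and 2.47 ± 0.08 over kidney (q = 1.57e-49), while liver and kidney differed by 0.05 ± 0.10 (q = 0.637). Dusp1 was well above the limit of counting in all 3 tissues, with 38.4 to 157 CPM in lung (median 83.4), 16.4 to 185 CPM in liver (median 68.3) and 11.6 to 87.1 CPM in kidney (median 32.8). Only lung against kidney passed for Dusp1 (1.34 ± 0.10, q = 8.41e-23), and liver against kidney was just under the fold limit at 0.98 ± 0.11. Ier3 had the widest span between tissues of the 10 members. It ran from 24.4 to 76.4 CPM in lung (median 44.3), from 5.47 to 24.5 CPM in kidney (median 13.4) and from 0.149 to 4.98 CPM in liver (median 1.4). The lung range of Ier3 did not overlap that of liver, at a log2 fold change of 5.17 ± 0.14 (q = 2.06e-57). It was higher in kidney than in liver in 47 of 47 mice, with a log2 fold change for liver against kidney of -3.46 ± 0.16 (q = 2.62e-37), and 11 livers had at most 3 counts of it. Lung exceeded kidney by 1.71 ± 0.07 (q = 5.15e-41).

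**Figure D2:**
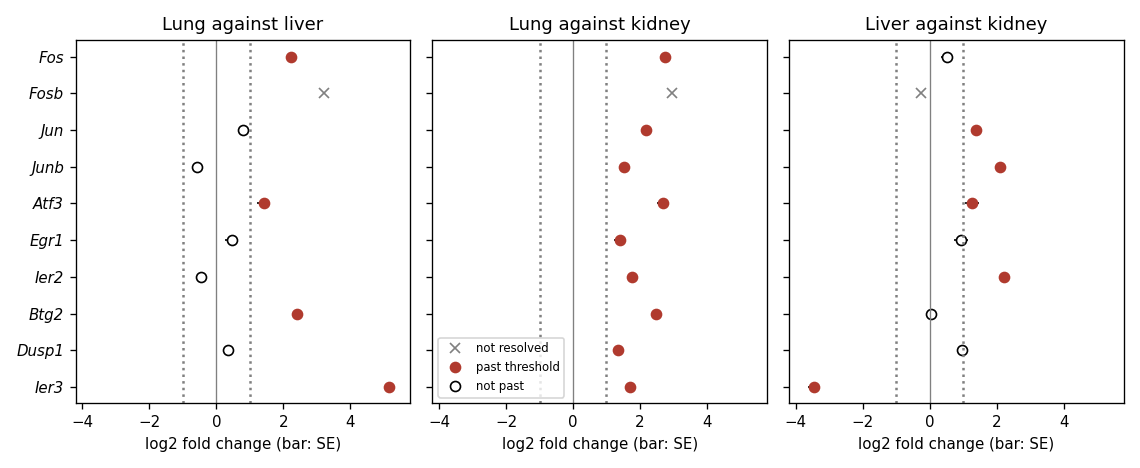
Log2 fold change of each member in the 3 tissue comparisons (limma-voom, 47 mice, bars of 1 SE, mostly hidden by the points). Filled points passed the threshold (q of at most 0.1, beyond the dotted lines at 1 and -1), which holds for 9 of 9 members in lung against kidney, 4 in lung against liver and 5 in liver against kidney, where Ier3 is the 1 filled point below 0. Grey crosses without bars mark Fosb, which was not resolved in liver and kidney.

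Among all tested genes, 31% were called higher in lung than in liver, 25.5% higher in lung than in kidney and 15.6% higher in liver than in kidney, beside 4, 9 and 4 of the 9 members. In the opposite directions, 23.9%, 20.6% and 20.8% of all genes were called, beside 0, 0 and 1 member. The median log2 fold change of the 9 members was 0.81 against 0.06 for all genes in lung against liver, 1.76 against 0.04 in lung against kidney and 0.98 against -0.0034 in liver against kidney. The 3 comparisons share libraries, so their values are given side by side and are not independent.

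The scaling decided where the zero of these comparisons lay. With total counts in place of TMM, the median of all genes moved to 1.43 for lung against liver, 0.46 for lung against kidney and -0.95 for liver against kidney. Junb and Ier2 then stood at 0.75 and 0.95 for lung against liver, the reverse of their direction above, but at -0.68 and -0.49 relative to the median of all genes. Relative to that median, 7 of the 9 members lay above and 2 below in lung against liver under TMM, total counts and both TPM scales, and 9 of 9 lay above in lung against kidney. Btg2, Fos and Egr1 also changed sign for liver against kidney under total counts (-0.84, -0.48 and -0.11), where all 3 lay above the median of all genes.

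On the length-scaled TPM of the files, Ier3 (median 201), Dusp1 (189), Btg2 (157) and Jun (148) were the most abundant members of lung. Their ranges overlapped, so that their order among themselves was not resolved. In liver the order was Dusp1 (55.4 TPM), Junb (35.5), Jun (31.3) and Ier2 (22.0), and in kidney Dusp1 (49.8), Ier3 (42.1), Jun (21.1) and Btg2 (18.1). Fosb was last in each tissue, at 2.88 TPM in lung, 0.20 in kidney and 0.06 in liver. Ier3, first in lung, was ninth of the 10 members in liver at 1.83 TPM.

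Markers of several cell types also differed between the tissues. The summed level of 8 endothelial markers had a median of 1101 CPM in lung (729 to 1474), 189 CPM in liver (129 to 236) and 154 CPM in kidney (109 to 183). For 9 fibroblast and smooth muscle markers the medians were 1020.5, 96.2 and 131 CPM, with ranges of 518 to 2112, 51.2 to 348 and 89.6 to 881 CPM. For 6 leukocyte markers they were 149 CPM (84.3 to 238), 19.2 CPM (9.30 to 259.9) and 11 CPM (3.77 to 74.8), and for 8 neutrophil markers 44.2 CPM (10.4 to 496), 1.39 CPM (0 to 50.6) and 0.842 CPM (0 to 9.81). The summed level of 7 macrophage markers was highest in liver, with 430 CPM (269.5 to 1495) against 228 in lung (148 to 361) and 61.3 in kidney (36.3 to 192). By gene, 2 of the 7 were called higher in lung, 2 in liver, and 3 did not pass. Clec4f and Cd5l had medians of 573 and 601 counts in liver and 1 and 7 in lung, while Marco had 17 in liver and 152 in lung. Of the defining markers, Pecam1, Tek and Eng had a median of at most 3 counts in liver and kidney, as did Ptprc and all 8 neutrophil markers. In whole-organ RNA, fewer cells of a type and less RNA per cell cannot be told apart, and the part of these cell types in the members' tissue levels was not tested.

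Related immediate-early genes were counted from lists. Of 44 tested genes outside the members, 28 (63.6%) were called higher in lung and 8 (18.2%) higher in liver, beside 31% and 23.9% of all genes. Between lung and kidney 29 (65.9%) were higher in lung and 2 (4.55%) in kidney, beside 25.5% and 20.6%, and between liver and kidney 10 (22.7%) were higher in each, beside 15.6% and 20.8%. On total counts the 8 higher in liver than in lung fell to 1, and liver against kidney gave 5 higher in liver and 23 in kidney. The median log2 fold change of all genes was then 1.43 for lung against liver and -0.95 for liver against kidney. The shares of all genes above hold for TMM and were not counted on total counts, so nothing is read from this change. Of the 44, 9 had a median of at most 3 counts in liver or kidney and could pass the filter only through the tissues where they were high. Over the other 35, 19 were higher in lung and 8 in liver, and 20 were higher in lung and 2 in kidney. Of the other AP-1 family subunits, 4 of 9 were tested, and in lung against liver 3 were higher and 1 lower. Over the 3 of these with a median above 3 counts in every tissue, 2 were higher and 1 lower. Fosl2, a Fos relative, had 69.0 ± 13.6 CPM (SD, n = 47) in lung, 12.2 ± 11.7 in liver and 14.5 ± 4.08 in kidney (log2 fold change of lung over liver 2.65 ± 0.09, q = 1.63e-48). Batf, an AP-1 factor of lymphocytes, had a median of 26 counts in lung and 2 in liver and in kidney, and the small Maf protein gene Mafg was lower in lung than in liver (-1.28 ± 0.06) but not on total counts (0.08).

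Of 11 other immediate-early transcription factors tested, 8 (72.7%) were higher in lung and 2 (18.2%) in liver, beside 31% and 23.9% of all genes. Against kidney, 9 (81.8%) were higher in lung and 0 in kidney, beside 25.5% and 20.6%. Over the 9 with a median above 3 counts in every tissue, these numbers were 6 and 2, and 7 and 0. Klf4, a Krüppel-like factor, had 69.8 ± 21.5 CPM in lung, 1.90 ± 1.17 in liver and 4.22 ± 1.57 in kidney. Klf2, its endothelial relative, had 49.1 ± 20.8 CPM in lung, 3.77 ± 1.68 in liver and 3.78 ± 1.49 in kidney. For lung over liver the log2 fold changes were 5.29 ± 0.11 for Klf4 (q = 1.57e-66) and 3.74 ± 0.13 for Klf2 (q = 9.08e-50). Nr4a3, an orphan nuclear receptor, had a median of 71 counts in lung, 1 in liver and 3 in kidney.

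Effectors and feedback regulators were counted apart. Of 12 effectors tested, 11 (91.7%) were higher in lung and 1 (8.33%) in liver, beside 31% and 23.9% of all genes. Against kidney, 10 (83.3%) were higher in lung and 0 in kidney, beside 25.5% and 20.6%. Over the 8 effectors with a median above 3 counts in every tissue, 7 were higher in lung and 1 in liver. Against kidney, 6 of these 8 were higher in lung and 0 in kidney. The 3 named effectors were not resolved in liver. The cyclooxygenase gene Ptgs2 had a median of 226 counts in lung, 0 in liver and 9 in kidney. Edn1, which encodes the vasoconstrictor endothelin, had medians of 307, 3 and 11 counts, and the urokinase receptor gene Plaur 264, 3 and 20 counts in the same order. Of 17 feedback regulators tested, 6 were higher in lung and 4 in liver (35.3% and 23.5%, near the 31% and 23.9% of all genes). Against kidney, 8 (47.1%) were higher in lung and 2 (11.8%) in kidney. Over the 15 with a median above 3 counts in every tissue, these numbers were 4 and 4, and 6 and 2. Errfi1, an inhibitor of the EGF receptor and 1 of the 4 higher in liver, had 119 ± 41.5 CPM in lung, 1708 ± 382 in liver and 529.9 ± 136 in kidney (lung against liver -3.88 ± 0.06, q = 1.15e-82). Gadd45b, a stress-response gene, had 18.5 ± 5.35 CPM in lung, 1.49 ± 1.94 in liver and 1.65 ± 0.605 in kidney, and the receptor kinase antagonist Spry2 had 22.3 ± 4.20, 2.08 ± 0.888 and 9.31 ± 2.35 CPM.

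Factors and kinases upstream of the members, and genes of other acute responses, were counted beside the same shares of all genes, 31% higher in lung than in liver and 25.5% higher in lung than in kidney. In the opposite directions the shares of all genes were 23.9% higher in liver and 20.6% higher in kidney. Of 11 upstream genes tested, 5 (45.5%) were higher in lung and 1 (9.09%) in liver, and 4 (36.4%) were higher in lung and 0 in kidney. They included the ternary complex factor gene Elk3 (7.38 ± 2.41 CPM in lung, 1.51 ± 0.861 in liver, 1.75 ± 0.648 in kidney), the ERK1 gene Mapk3 (86.6 ± 14.4, 20.7 ± 3.81 and 26.3 ± 4.98 CPM) and the ribosomal S6 kinase gene Rps6ka3 (103 ± 13.8, 26.2 ± 5.02 and 75.1 ± 9.45 CPM). Of 8 heat shock genes, 2 (25%) were higher in lung and 1 (12.5%) in liver, and 1 (12.5%) in lung and 2 (25%) in kidney. Hspb1 had 54.3 ± 32 CPM in lung, 13 ± 25.2 in liver and 9.53 ± 5.81 in kidney. Of 9 hypoxia genes tested, 2 (22.2%) were higher in lung and 3 (33.3%) in liver. Between lung and kidney, 1 (11.1%) was higher in lung and 6 (66.7%) in kidney. Ndrg1 had 1486 ± 561 CPM in kidney, 28 ± 7.79 in lung and 29.5 ± 20.5 in liver. Of 8 clock genes tested, 1 (12.5%) was higher in lung and 0 in liver, and 2 (25%) were higher in lung and 0 in kidney. Over the 8 hypoxia genes with a median above 3 counts in every tissue, 1 was higher in lung and 3 in liver, and 1 in lung and 5 in kidney. Over the 7 such clock genes these numbers were 0 and 0, and 2 and 0.

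Mice differed more in the members than in most genes. The coefficient of variation between the 47 mice, after subtraction of the counting error, was 1.22 for Egr1, 1.10 for Atf3 and 0.887 for Fos in liver, against a median of 0.246 over all genes with enough counts. In kidney the values were 0.780 for Egr1, 0.738 for Fos and 0.723 for Atf3, against 0.224, and in lung 1.03 for Fosb, 0.664 for Egr1 and 0.537 for Atf3, against 0.215. Fosb was too low in liver for this measure. In kidney it had 0.942, a value that rests on a median of 2 counts. At the other end, Ier3 in lung had 0.223, above 52.3% of genes, and Jun and Btg2 in lung had 0.290 and 0.289. The members were thus not equally variable, and the same gene could be variable in 1 tissue and steady in another.

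The next question was whether the members rose and fell together across the 47 mice within a tissue. Of the 45 pairs of members, 14 had a Pearson r of at least 0.5 in lung, 8 in kidney and 1 in liver, on rank inverse normal values of TMM-normalized TPM, while 1.06%, 0.482% and 0.224% of all pairs of tested genes reached it. The median r over member pairs was 0.388 in lung, 0.384 in kidney and 0.224 in liver, and that over all gene pairs was 0.003, 0.0035 and 0.0065. Negative r occurred for 3 pairs in lung, 0 in kidney and 4 in liver. The liver values include 9 pairs with Fosb, not resolved in 42 of 47 livers, and 9 with Ier3, not resolved in 11. Over the 28 pairs of the other 8 members, 12 reached 0.5 in lung, 8 in kidney and 1 in liver, and the medians were 0.436, 0.420 and 0.305. The difference between tissues was not tested.

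**Figure D3:**
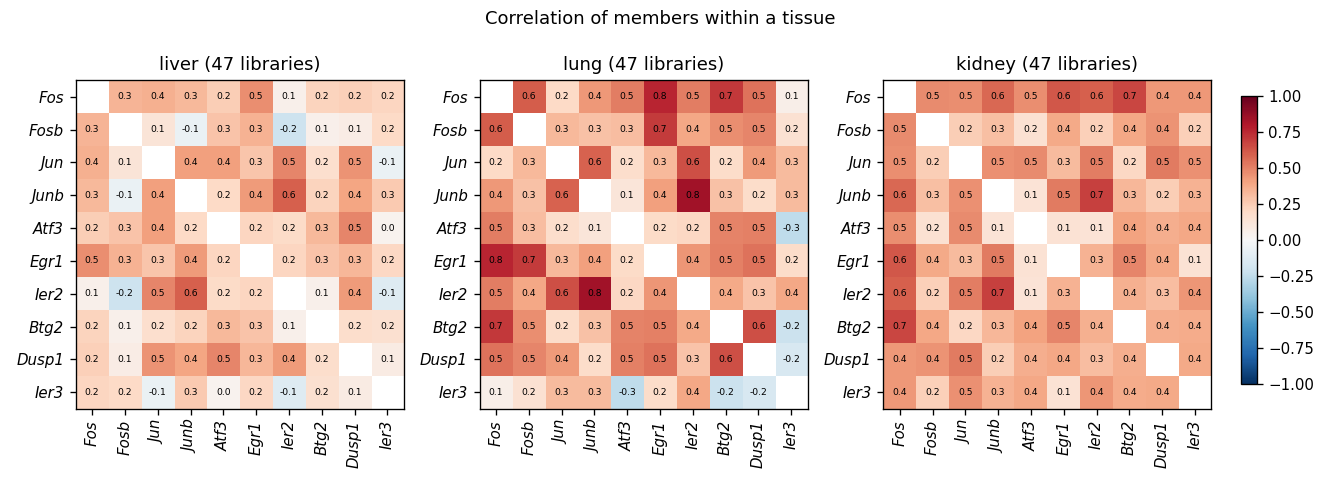
Pearson r between members over 47 libraries of each tissue (colour from -1 to 1, values rounded to 1 decimal). Lung holds the strongest pair, Junb with Ier2 at 0.843, and a pale or blue margin for Ier3, while kidney is positive throughout and liver is paler than both.

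The strongest pair in every tissue was Junb with Ier2. Their r was 0.843 in lung (rho 0.781, permutation p = 1e-05 for both, the smallest that 100000 resamples can give, q = 4.76e-09 over all gene pairs), 0.682 in kidney (rho 0.715, q = 0.000454) and 0.596 in liver (rho 0.540, q = 0.0194). Without the 2 mice farthest from the median of the first gene it was 0.807, 0.665 and 0.517. In lung the mouse with the most Junb, CC037 at 89.7 CPM, also had the most Ier2 at 56.8 CPM, and the mouse with the least Junb, CC033 at 5.22 CPM, had the least Ier2 at 6.24 CPM. The genes are neighbours on chromosome 8, with Ier2 at 87185230 to 87186751 and Junb at 87500811 to 87502617 (NCBIM37), both on the minus strand, with 1 exon each and 314059 bases between them. Of the 11 tested genes between them, the median r with Junb was 0.271 in lung, 0.038 in kidney and 0.035 in liver. The highest was 0.611 in lung (Lyl1, a transcription factor gene of blood and endothelium), 0.413 in kidney and 0.175 in liver, all below the r of Junb with Ier2.

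Fos had the highest mean r to the other members in lung and in kidney. It had an r of at least 0.5 with 6 of the other 9 members in lung and with 4 in kidney, and its mean r was 0.482 and 0.526. Fos and Egr1 had an r of 0.765 in lung (rho 0.734, permutation p = 1e-05, q = 2.04e-06), 0.624 in kidney (rho 0.625, q = 0.00305) and 0.464 in liver (rho 0.509, q = 0.162). The liver pair therefore did not pass over all gene pairs. Fos and Btg2 had 0.706 in lung (q = 4.35e-05) and 0.670 in kidney (q = 0.000695), but 0.223 in liver (q = 0.685). Fos and its relative Fosb had 0.607 in lung (q = 0.00155) and 0.476 in kidney (q = 0.0659), where Fosb had a median of 2 counts. Fos with Jun, which pair as proteins, had 0.468 in kidney (q = 0.0740), but 0.353 in liver (q = 0.394) and 0.198 in lung (q = 0.551).

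**Figure D4:**
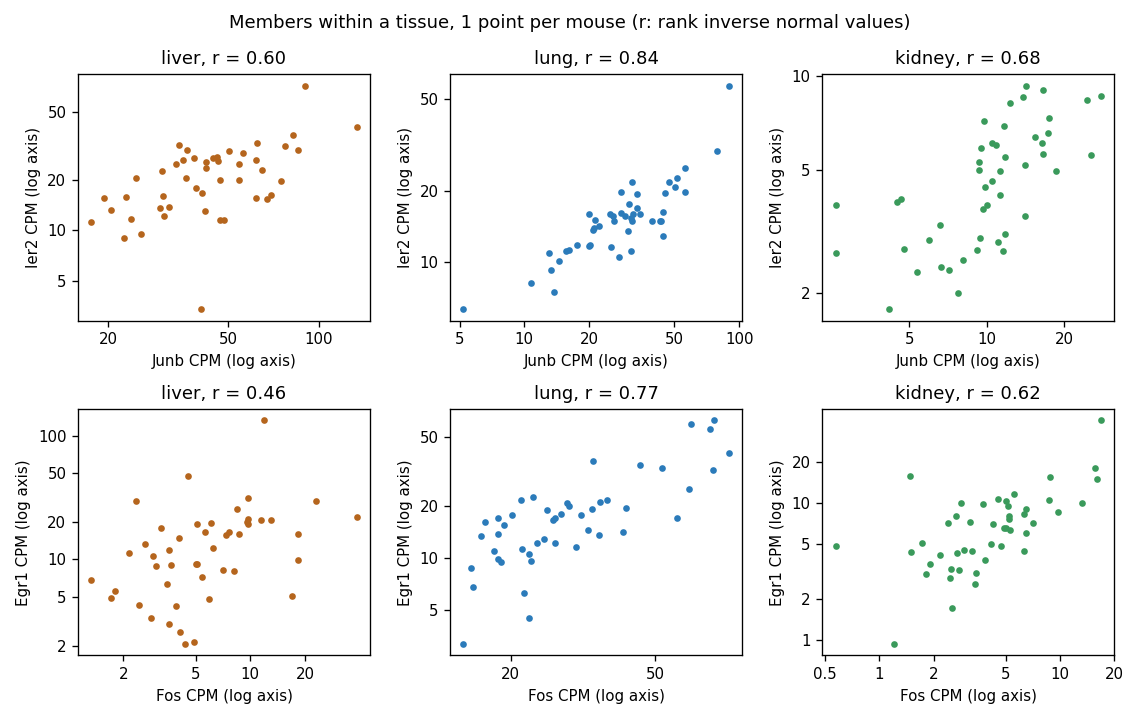
Ier2 against Junb (top) and Egr1 against Fos (bottom) in liver, lung and kidney, in TMM-scaled CPM on log axes, with 1 point per mouse and the r of the rank inverse normal values in each title. The lung panels are the tightest, with r of 0.843 and 0.765, and the liver panels the loosest, with 0.596 and 0.464.

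Other pairs of lung were Fosb with Egr1 (0.702, q = 5.31e-05), Btg2 with Dusp1 (0.645, q = 0.000468), Jun with Ier2 (0.642, q = 0.000527) and Jun with Junb (0.587, q = 0.00271). In these pairs Jun went with Junb and Ier2, and Fosb and Egr1 went with Fos. The groups were not separate, since pairs across them ran from 0.198 (Fos with Jun, q = 0.551) to 0.513 (Fos with Ier2, q = 0.0153). Ier3 stood outside in lung, with a mean r to the other members of 0.088 and with -0.254 for Atf3 (q = 0.396), -0.212 for Btg2 (q = 0.510) and -0.160 for Dusp1 (q = 0.656), none of which passed. In kidney Ier3 had a mean r of 0.356, between 0.144 with Egr1 and 0.457 with Jun. Whether the lung and kidney values of Ier3 differ was not tested.

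Cell-type markers and genes of other responses were set beside the members within a tissue. Of 43 tested markers of endothelial cells, leukocytes, neutrophils, macrophages, fibroblasts, liver, lung and kidney, 0 had a mean r to the members of at least 0.3 in any tissue. So few of all tested genes reached it (0.479% in kidney, 0.256% in lung and 0.0165% in liver) that nothing is read from this count. The mean r of the markers ran from -0.122 to 0.182 in liver, from -0.234 to 0.178 in lung and from -0.218 to 0.188 in kidney. These means are over all members, so they include Fosb, not resolved in most livers and kidneys. The highest liver value was that of Acta2, a smooth muscle actin gene, which ranked 92 of 12113 genes. The endothelial gene Cldn5 had a mean r of 0.136 in lung and 0.158 in kidney, and r of at least 0.5 with 1 member in each, up to 0.599 in lung. Over the 6 tested endothelial markers, the mean r ran from -0.023 to 0.136 in lung, with a median of 0.020. In kidney it ran from -0.085 to 0.163 over these markers, with a median of 0.093. Dnajb1, which encodes a heat shock co-chaperone, had a mean r of 0.271 in lung, with r of at least 0.5 with 3 members and up to 0.689, and ranked 78 of 12117 genes. In kidney Dnajb1 reached 0.648 and the heat shock gene Hspa1a 0.624 with a member. Over the 8 heat shock genes, the mean r ran from -0.168 to 0.271 in lung, with a median of 0.071. In kidney it ran from -0.013 to 0.255 over these genes, with a median of 0.113. The hypoxia response gene Ddit4 had a mean r of 0.264 in kidney and Egln3 one of 0.230 in liver, where it ranked 18. Each was the highest of 9 hypoxia genes, whose mean r ran down to -0.203 in kidney and -0.115 in liver. The medians of the 9 were -0.014 and 0.054. The part of these cell types and responses in the joint variation was not tested. The r of a member to the total counts lay between -0.274 (Btg2 in liver) and 0.185 (Atf3 in kidney). Sequencing batches are not among the labels used here, and their part in the joint variation was not tested.

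The size of the joint variation depended on the scaling and on a few mice. On TPM without TMM the pairs with r of at least 0.5 numbered 31 in lung, 14 in kidney and 8 in liver. Without CC001, CC037, CC041 and CC042, mice with many high members that were chosen after the values were seen, they numbered 9 in lung, 5 in kidney and 1 in liver.

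The 10 genes outside the members that varied most like them in each tissue were then named, of which 5 in lung, 5 in kidney and 4 in liver stand on the immediate-early lists used here. By mean r to the 10 members, the nuclear receptor gene Nr4a1 was first in lung (0.544) and in kidney (0.533) and came after 2 others in liver (0.295). In lung it was followed by Cyr61, which encodes a secreted matrix protein (0.503), the kinase gene Sik1 (0.461), Zfp36, which encodes tristetraprolin, a protein that destabilizes mRNA (0.454), and Srf, which encodes serum response factor (0.419). Ubald1 (0.370), Rcan1 (0.359), BC029722 (0.358), Ptms (0.350) and Csrnp1 (0.349) completed the 10. Nr4a1 was also higher in lung than in liver, at 36 ± 22.4 against 11.1 ± 17.7 CPM, a log2 fold change of 2.18 ± 0.20 (q = 2.23e-18).

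In kidney the 10 were Nr4a1, Zfp36 (0.412), Klf2 (0.384), Tob2 (0.382), Card10 (0.373), Cyr61 (0.368), Gtpbp6 (0.367), the clock-linked repressor gene Bhlhe40 (0.358), Klf4 (0.353) and Phf2 (0.352). Zfp36, Nr4a1 and Cyr61 were thus among the 10 in both lung and kidney. In liver the values were lower, with Ifrd1 (0.335), Ppp1r15a, the stress-induced phosphatase subunit gene (0.301), and Nr4a1 in front. Pcp4l1 (0.288), Zfp36 (0.275), Gadd45b (0.265), Txnip (0.261), Muc5ac (0.261), Ccdc60 (0.258) and Nexn (0.251) followed. Muc5ac and Ccdc60 had a median of 0 counts in liver, so that their ranks rest on a few libraries. By list, 5 of 11 other immediate-early transcription factors had a mean r of at least 0.3 in kidney, 2 in lung and 0 in liver, and 3, 3 and 1 of 17 feedback regulators did. The means in liver include Fosb and Ier3, not resolved in 42 and 11 of 47 livers, and those in kidney include Fosb, not resolved in 30 of 47.

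The joint rise could also be read from single libraries. A library was called high when at least 8 of the 10 members stood at 2 times their tissue median or more, which 1 of 47 livers, 0 lungs and 0 kidneys met. The 1 liver met it through Fosb, at 7 counts against a liver median of 1, and without Fosb it had 7 members and no library met the rule. This liver, of CC001 (12987535 counts), had 28.6 CPM of Atf3 (10.5 times the median), 23.1 CPM of Fos (4.53 times) and 134 CPM of Junb (3.18 times). Egr1, Ier2, Btg2 and Dusp1 were also at 2 times or more, Jun was at 1.95 times, and Ier3 at 1.48 times. In the lung of the same mouse no member reached 2 times its median, and in the kidney 3 did besides Fosb.

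Without Fosb, 2 livers, 1 lung and 2 kidneys had 5 or more of the 9 members at 2 times the median, named here after their values were seen. The other liver was that of CC042 with 7, at 133 CPM of Egr1 (11.2 times the median), 205 CPM of Jun (3.73 times) and 72.1 CPM of Ier2 (3.54 times). The kidney of the same mouse had 5, with Fos at 3.86 times and Btg2 at 3.55 times, while its lung had 0. In the lung of CC037, the shallowest of these at 3375073 counts, 5 were high, with 56.8 CPM of Ier2 (3.79 times) and 59.2 CPM of Egr1 (3.50 times), against 0 in its liver and 0 in its kidney. Fosb, resolved in lung, stood there at 22.9 CPM (9.62 times). The kidney of CC041 had 5, the lung 3 and the liver 1. The highest Fos of any liver, 38.7 CPM (7.60 times), was that of CC015, with 4 members high. High libraries of 1 tissue were thus not always high in the other tissues of the mouse. At the other end, 36 lungs, 33 kidneys and 27 livers had none of the 9 members at 2 times the median.

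Whether a mouse that was high in 1 tissue was high in another was then measured for each member over the 47 mice. The r was low for most members. Between liver and lung 0 of 10 members passed at q of at most 0.1 with r above 0, against 10.4% of all genes. Between liver and kidney 3 passed, against 18.1%, and between lung and kidney 1, against 15.5%. The median r of the members was 0.150, 0.194 and 0.224 for these pairs, against 0.117, 0.153 and 0.140 for all genes. These counts and medians include Fosb, which was not resolved in most livers and kidneys and did not pass in any tissue pair.

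The 3 that passed between liver and kidney were Egr1 (r = 0.371, rho 0.404, permutation p = 0.00974 and 0.00502, q = 0.0683), Atf3 (r = 0.362, rho 0.350, p = 0.0124 and 0.0159, q = 0.0767) and Fos (r = 0.344, rho 0.347, p = 0.0178 and 0.0176, q = 0.0978). Dusp1 passed between lung and kidney (r = 0.394, rho 0.394, p = 0.00663 and 0.00657, q = 0.0528). None of the 4 was past the threshold once the 2 mice farthest from the median were left out, when r was 0.327 for Egr1, 0.272 for Atf3, 0.284 for Fos and 0.311 for Dusp1. These 4 relations therefore rest in part on those mice. Without CC032 and CC042, Egr1, Atf3 and Fos no longer passed between liver and kidney (q = 0.115, 0.136 and 0.152), and the 1 member that passed was Fosb (q = 0.0786), which was not resolved in most of these libraries. Between lung and kidney 3 then passed, Dusp1 (q = 0.0214), Btg2 (q = 0.0847) and Atf3 (q = 0.0953).

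Egr1 had an r above 0.28 in each of the 3 tissue pairs, with 0.284 between liver and lung (q = 0.253) and 0.326 between lung and kidney (q = 0.134). Junb and Ier2, the tightest pair within each tissue, were with Ier3 the 3 lowest members between lung and kidney, with 0.0090 for Junb, -0.069 for Ier2 and -0.021 for Ier3. Different members in different tissues gave 90 combinations per tissue pair, those with Fosb included. Their median r was 0.111 with liver and lung, 0.162 with liver and kidney and 0.10 with lung and kidney, and 0 of them reached 0.5.

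**Figure D5:**
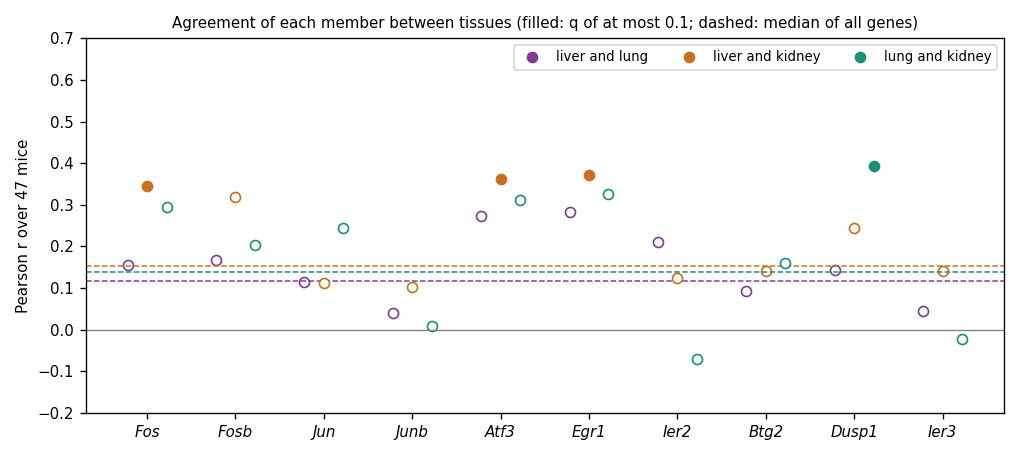
Pearson r of each member between tissues over the 47 mice, with a colour per tissue pair, filled where q was at most 0.1 and dashed at the median of all genes. The filled points are Fos, Atf3 and Egr1 for liver and kidney and Dusp1 for lung and kidney, and no r exceeds 0.394.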

How the data were processed

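RNA was sequenced from 141 snap-frozen tissues as 50-base single-end reads of ribosome-depleted libraries, after an RNA integrity filter. The authors aligned reads with STAR 2.5.3a to a pseudo-genome of each strain in Build 37 coordinates (mm9), kept unique alignments and quantified RefSeq genes with RSEM. The deposited expected counts (25 values were not whole) were rounded for the count tests, and the deposited TPM served for correlations and for levels between genes. The limma 3.58.1 fit used genes above 1 CPM in at least 30% of libraries, TMM factors from edgeR 4.0.16 (median 0.643 in liver, 1.94 in lung and 1.32 in kidney), and strain as a replicate block, since 1 animal of each strain gave all 3 tissues, per the study's methods. Within a strain, deviations from the tissue means went together (median r over genes 0.177 to 0.216 per tissue pair, above 0.1 in 39 to 45 of 47 mice). The study's sequencing batch was not used, because it is not among the labels. Correlations used rank inverse normal values (offset 0.375) of TPM scaled by TMM within a tissue, 100000 permutations for r and rho, and q from the t distribution over all genes, or all gene pairs for the 135 pairs within tissues. The 30 correlations between tissues were treated likewise. On simulated data for lung against liver, 200 of 200 genes changed 4-fold were recovered among 12127 with 0 false calls. The simulation gave all other genes the same level in every tissue and no strain differences. It checks that the fit runs and cannot speak to the scaling between tissues. No 2 libraries were identical. Totals per library limit precision as given with the levels, for counting error only. The named genes were the members, the 10 genes per tissue with the highest mean r to them, the 3 genes per pathway list with the largest absolute fold change past the threshold, and libraries with at least 8 members at 2 times the median. Alternatives were other scalings and tests (DESeq2 1.42.0, edgeR), no filter, log2 TPM, no block, 2 tissues only, other thresholds and correlations, and fewer strains. The members and lists were chosen with earlier results of these data known. Chromatin data were not analysed here.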

Additional observations from a re-analysis of the deposited data

How the results depend on the processing

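The counts of members called changed with the scaling, and here they include Fosb. The share of all genes called was counted only for the limma-voom fit with TMM and both thresholds. The counts under other settings therefore have no such share beside them and are not read as results about these genes. Higher in lung than in liver were 8 on total counts and 9 on log2(TPM + 1) and on log2(TPM + 0.1). Higher in liver than in kidney were 2 on all 3 of these scales, and higher in kidney 2 on total counts. Without a fold threshold, 8 members were higher in lung and 2 in liver in lung against liver, and 7 were higher in liver than in kidney. The other immediate-early genes higher in liver than in lung fell to 1 on all 3 scales. In liver against kidney, 5, 4 and 5 were higher in liver on total counts, log2(TPM + 1) and log2(TPM + 0.1), and 23 and 22 were higher in kidney on total counts and log2(TPM + 0.1). Without a fold threshold they numbered 16 in liver and 20 in kidney, and 4 higher in kidney than in lung.

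Reversed fold changes, on total counts, log2(TPM + 1) and log2(TPM + 0.1) in that order, were 0.75, 0.84 and 0.86 for Junb and 0.95, 1.04 and 1.09 for Ier2 in lung against liver, and -0.48, -0.38 and -0.46 for Fos, -0.11, -0.086 and -0.13 for Egr1 and -0.84, -0.79 and -0.85 for Btg2 in liver against kidney. On the 2 TPM scales Dusp1 was at -0.0025 and -0.0059 there, and Btg2 was at -0.053 with DESeq2 size factors and -0.024 with no low-count filter. These scales also shift the median of all genes, as given with the results. Without the replicate block, 5, 10 and 4 members were called higher in the first tissue and 1 in kidney over liver, as with it, and no call of a member count changed. edgeR gave 5, 10 and 4 higher in the first tissue, and DESeq2 gave 6, 10 and 4. Leaving out Fosb, chosen after seeing the data, gave 4, 9 and 4.

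Between tissues, the members called between liver and kidney were 0 without the 2 farthest strains, 0 on TPM without TMM, 1 (Fosb) without CC032 and CC042 and 1 without CC001, CC037, CC041 and CC042. Between lung and kidney they were 0, 0 and 3 under the first 3 of these and 2 by Spearman correlation, and between liver and lung 1 without the 4 strains. On TPM without TMM, r reversed between liver and lung for Fosb (-0.052), Atf3 (-0.049) and Btg2 (-0.099), and between lung and kidney for Ier2 (0.295) and Ier3 (0.147). Without the 4 strains Jun between liver and lung was at -0.0012. Between lung and kidney, Junb was at -0.032 without the 2 farthest strains, -0.030 on log2(TMM-normalized TPM + 1) and -0.020 with DESeq2 size factors, and Ier3 at 0.034 and 0.074 under the first 2 of these.

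Member pairs past r of 0.5 numbered 3 in liver by Spearman correlation and 2 with DESeq2 size factors, and on TPM without TMM 8 in liver, 31 in lung and 14 in kidney. Without the 4 strains they were 9 in lung and 5 in kidney. At r of 0.3 they numbered 16, 29 and 35 in liver, lung and kidney, and at 0.7 they numbered 0, 4 and 0. The median r over member pairs stayed between 0.166 and 0.368 in liver, 0.348 and 0.532 in lung and 0.310 and 0.432 in kidney. The causes of these changes were not tested. CC032 and CC042 were the strains left out in earlier work on these data, and the 4 strains were chosen after seeing the data. Low counts limited Fosb in liver and kidney and Ier3 in liver most.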
